A study of Homo sapiens with 7 samples.

Results

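The comparison described here was between 2 arrays: dermal fibroblasts that expressed prelamin A, and the same cells to which the protease ZMPSTE24 had been added. They are 2 of the 7 arrays of the series and were chosen by their labels, and the values compared were those of 12726 genes kept from 54675 probe sets. All 7 RNA samples came from normal dermal fibroblasts, which per the labels were of 1 strain, at passage 10. The groups were control (2 arrays), prelamin A, prelamin A + ZMPSTE24, prelamin A + FTI, progerin and progerin + FTI (1 array each), where FTI is a farnesyltransferase inhibitor given at 10 nM for 48 h. The methods name a lentiviral vector with a CMV promoter for prelamin A and progerin. They do not state that the cells of the arrays were made with it. How ZMPSTE24 was delivered to the cells for the array, and which virus the 2 controls received, are not given in the sources used here. The methods describe transduction of 2 fibroblast strains, each grown in duplicate, while the labels give the same strain for every array. Which culture each control came from is not stated, so the spread between the controls, the yardstick used below, may be technical or may hold a difference between cultures or strains. The title of the prelamin A + FTI array leaves out prelamin A, which its other label gives.

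Lamin A is made as a precursor, prelamin A, whose carboxyl terminus ends in a CAAX motif. The cysteine of that motif is farnesylated, the last residues are cut away and the new end is methylated, and ZMPSTE24, a zinc metalloprotease of the endoplasmic reticulum and nuclear membrane, then removes the farnesylated tail to release mature lamin A. Progerin, the product of the mutated LMNA gene in Hutchinson-Gilford progeria, lacks the site that ZMPSTE24 cuts and stays farnesylated, and loss of ZMPSTE24 causes restrictive dermopathy or mandibuloacral dysplasia. The array comparison asks which transcripts differ when the enzyme that processes prelamin A is supplied to cells that carry an excess of it.

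The gene for the added enzyme, ZMPSTE24 (chromosome 1, 40258236 to 40294180, GRCh38.p14), gave no higher signal on the array labelled with it. ZMPSTE24 read 4841 and 4973 on the controls, 6119.5 with prelamin A, 5779 with prelamin A + ZMPSTE24, 5180.1 with prelamin A + FTI, 5073 with progerin and 5195 with progerin + FTI units of MAS 5.0 signal, the linear intensity that the Affymetrix software gives for each probe set. The log2 difference between the ZMPSTE24 and the prelamin A array was -0.08, and the controls were the lowest of the 7. For LMNA the controls gave 9300.2 and 14029, prelamin A 8498, prelamin A + ZMPSTE24 9488, prelamin A + FTI 9814, progerin 16289 and progerin + FTI 15239.6 by its brightest probe set, and the difference was 0.16, under the 0.59 between the controls. The vectors' sequences were not analysed here against these probes, so neither signal checks the labels of the 2 arrays, and the direction of every difference below rests on those labels. Of the 8 genes of CAAX processing and the 19 of the lamins and nuclear envelope that were kept, none differed past 2-fold between the arrays.

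Signals were compared as log2(signal + 16), a scale that understates the difference of dim genes. With 1 array on each side there was no replicate check, and the spread between the 2 controls served as the yardstick. All 7 arrays had been scaled to a trimmed mean of 500.1, and their median signals lay between 64.9 and 77.03. The ratio of 3′ to 5′ signal for ACTB, a sign of RNA quality, was 1.62 on the prelamin A array and 1.498 on the ZMPSTE24 array, against 1.06 to 1.26 on the other arrays. Its part in the differences was not tested. All 12 fibroblast markers were kept and none differed past 2-fold, and their summed signal was 272985 to 342720 over the 7 arrays, 306190 with prelamin A and 288544 with ZMPSTE24. Markers of other cells were mixed. In 4 of 6 keratinocyte markers, KRT5, KRT14, KRT1 and CDH1, the signal was under 100 units on both arrays, but DSP read 16834 with prelamin A and 9916 with ZMPSTE24 (controls 8332 and 5167) and KRT10 5634 and 6516. The endothelial markers CDH5, VWF and KDR were under 100 units on both, while TEK read 167 and 279.7 (controls 23.5 and 2.19). The summed signal of the 4 macrophage markers was 598 with prelamin A and 764 with ZMPSTE24 against 209 and 177 on the controls, with CD14 at 320.4 and 575, CD163 at 154 and 52.2 and PTPRC under 100 units on both. Of 6 markers of the embryonic kidney cells used to package virus, CDH2 made up most of the sum (4485 and 3665, controls 5049 and 4951). The other members above 100 units on either array were INA (303 and 442, controls 12.8 and 5.20), NEFL (264 and 159, controls 29.7 and 34.4) and PAX2 (81.3 and 105.6). The part of other cells in the differences was not tested. In bulk RNA of this kind, fewer cells of a type and less RNA per cell cannot be told apart.

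Past 2-fold, 489 genes were higher (3.84% of 12726) and 589 lower (4.63%) with ZMPSTE24 than without. The 2 controls differed by as much in 1181 genes (9.28%), 632 higher in the first (4.97%) and 549 higher in the second (4.31%), more than the 1078 (8.47%) of the ZMPSTE24 pair. The standard deviation of the log2 difference was 0.610 in the ZMPSTE24 pair and 0.618 in the control pair. The pairs parted in the lower tail. Genes lower by more than 3 on the log2 scale numbered 22 with ZMPSTE24, while 9 differed by that much in each direction between the controls. Past 4, 9 genes were lower and 2 higher with ZMPSTE24, against 1 in either direction between the controls. Of the genes kept, 190 reached 100 units on the prelamin A array alone, so that they could only be called lower, and 89 of them were. Another 78 reached it on the ZMPSTE24 array alone, of which 32 were called higher. Without these, 457 genes were higher and 500 lower. The tail counts were not recounted without them, and GAL and IBSP, kept through the prelamin A array alone, are among the 22. The extremes were -7.41 and 4.60 in the ZMPSTE24 pair and -4.47 and 3.52 in the control pair.

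**Figure D1:**
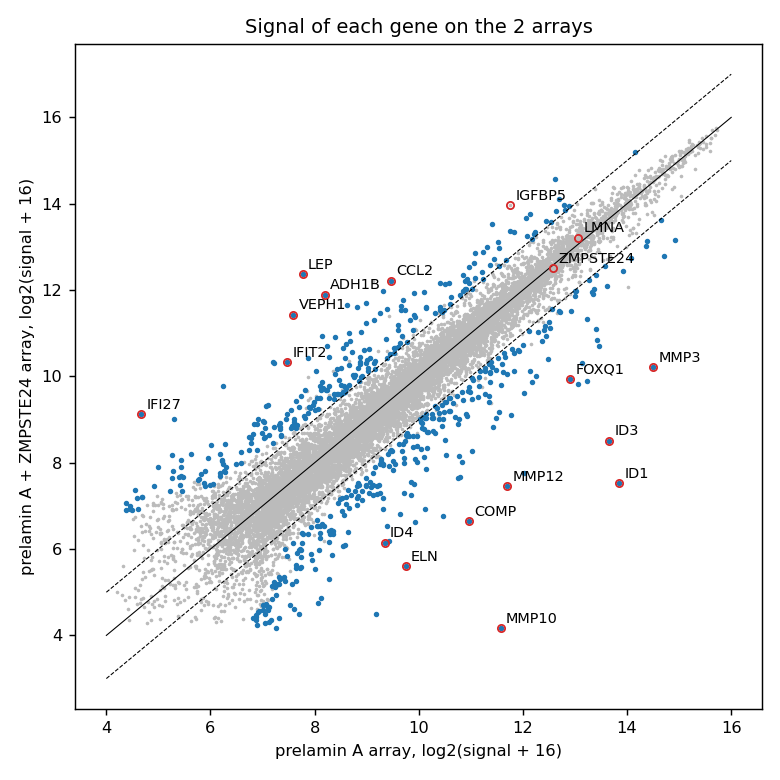
Each point is 1 of the 12726 genes, with its log2(signal + 16) on the prelamin A array (horizontal axis) and on the prelamin A + ZMPSTE24 array (vertical axis). The solid line is equality and the dashed lines are 2-fold, blue points are the 547 genes past both 2-fold and the control yardstick, and red circles mark named genes, of which MMP10, ID1 and ID3 lie farthest below the line.

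**Figure D2:**
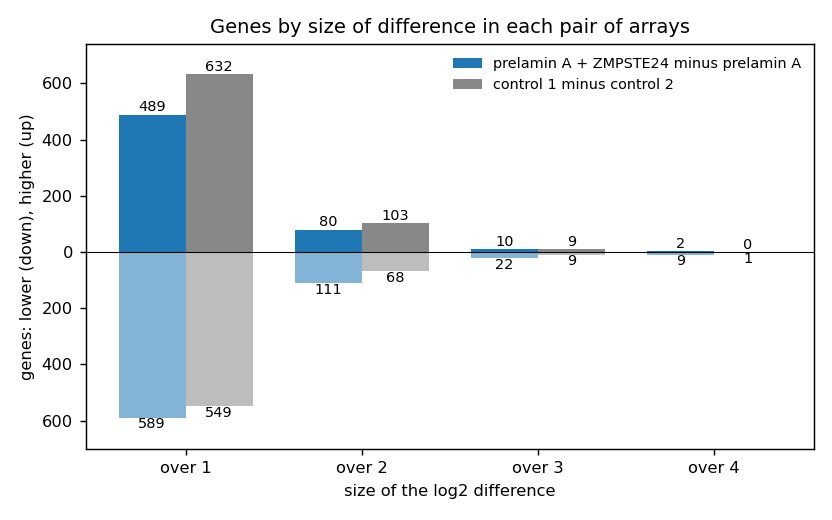
The bars count genes whose log2 difference was over 1, 2, 3 or 4 (horizontal axis), higher above the zero line and lower below it, for the ZMPSTE24 pair (blue) and for the 2 controls (grey). The control pair has as many genes over 1, and the ZMPSTE24 pair has more lower genes over 3 (22 against 9) and over 4 (9 against 1). The counts include genes that were kept through a single array.

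A stricter call required a difference past 2-fold that was also larger than the gene's own difference between the controls and than the 95th percentile of the control differences of genes of like signal. It held for 251 higher genes (1.97%) and 296 lower genes (2.33%), 547 in all (4.30%). Without the gene's own control difference, which cannot be applied to the controls themselves, 603 genes (4.74%) of the ZMPSTE24 pair and 570 (4.48%) of the control pair were past 2-fold and the percentile. The control count is nearly fixed in advance, because the percentile was taken from these same control differences. By the 2-fold count, 1078 against 1181, the number of genes was no larger than that between 2 controls. The results below are those of single genes read against their own control differences. Of the 123 genes past 2-fold among those named by rule, 99 were past the yardstick. The rule itself took the 15 widest each way from genes past the yardstick, so the 99 is no check of it. Of all 1078 genes past 2-fold, 547 were past the yardstick. The controls differed by more than the ZMPSTE24 pair in 14 of the 123: IGFBP5, PENK, GDF15, IL11, DLL1, HES1, FOXE1, ASNS, TGFB1, MAP2, H1-2, H2BC4, H2AC8 and PTGS1. In a limma fit of the 6 conditions, in which the lone arrays are assumed to vary like the 2 controls, no gene had an adjusted p under 0.05 (smallest 0.653) and 649 had an unadjusted p under 0.05. With an intensity trend in the same limma fit, ID1 alone had an adjusted p under 0.05 (0.0413), with ID3 and SLC7A8 next at 0.0525.

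The ID genes and the pathway of the bone morphogenetic proteins (BMPs) held some of the widest differences. BMPs signal through receptors and the SMAD transcription factors, and the ID genes, which encode helix-loop-helix proteins that block the DNA binding of differentiation factors, are among their direct targets. ID1 read 430.2 and 888 on the controls, 14766 with prelamin A, 168 with prelamin A + ZMPSTE24, 11807 with prelamin A + FTI, 171 with progerin and 182 with progerin + FTI units. Its signal was 80.2-fold lower with ZMPSTE24 (log2 difference -6.33), while the controls differed by 1.02. The prelamin A and prelamin A + FTI arrays stood far above the other 5, and the ZMPSTE24 array was the lowest of all 7. The gene lies on chromosome 20, 31605289 to 31606510 (GRCh38.p14). The signal of ID3 was 12826 on the prelamin A array and 348 on the ZMPSTE24 array, beside 1186 and 2294 on the controls, 8607 with prelamin A + FTI, 219 with progerin and 269 with progerin + FTI. Its log2 difference of -5.14 exceeded the 0.94 between the controls, and its order over the arrays was close to that of ID1, with the prelamin A arrays with and without FTI highest. The 2 genes lie on different chromosomes, ID3 on chromosome 1, 23557926 to 23559501. For ID4 the controls gave 72.3 and 72.7, prelamin A 634, prelamin A + ZMPSTE24 54.9, prelamin A + FTI 469, progerin 74.2 and progerin + FTI 54.1 units. ID4 was over 100 units only on the prelamin A and prelamin A + FTI arrays and 9.17-fold lower with ZMPSTE24 (-3.20). The signal of ID2 was 25874 on the prelamin A array and 12618 on the ZMPSTE24 array, beside 13551 and 10928 on the controls, 25133 with prelamin A + FTI, 11122 with progerin and 11412 with progerin + FTI. The ZMPSTE24 array of this bright gene was 2.05-fold lower (-1.04) and lay between the 2 controls.

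Among the other members, the inhibitory SMAD7 and the receptor-activated SMAD9 were lower too. SMAD7 read 544 and 1056 on the controls, 2976 with prelamin A, 563 with prelamin A + ZMPSTE24, 1725 with prelamin A + FTI, 791 with progerin and 539 with progerin + FTI units. For SMAD9 the controls gave 878 and 702, prelamin A 5690.5, prelamin A + ZMPSTE24 1335, prelamin A + FTI 6101, progerin 1008 and progerin + FTI 1103 units. Both were highest with prelamin A or prelamin A + FTI, and their log2 differences were -2.37 and -2.08, against 0.94 and 0.32 between the controls. The secreted BMP antagonist NOG went from 1225 to 412 units (-1.54, controls 0.11 apart). ATOH8, a helix-loop-helix factor outside the list counted next, went from 1751 to 189 (-3.11, controls 0.23 apart). ATOH8 was named after its values were seen. Of the 21 kept genes of the ID and BMP list, 8 were past 2-fold lower and 2 higher (4.63% and 3.84% of all genes). Their median was -0.44, while the median of all genes was -0.02 and that of the list between the controls -0.01. Between the controls, 2 of the 21 were past 2-fold higher in the first and 4 in the second. The 2 higher members were the ligand genes GDF5 (2.10) and INHBB (1.96), and the INHBB difference was under its own control difference of 2.48. INHBA, the subunit of activin A, was at -1.01.

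Genes of cartilage and bone were mostly lower. Of the 10 kept, 8 were past 2-fold lower (4.63% of all genes), 7 of them past the yardstick, and 1 was higher. IBSP and MGP were kept through the prelamin A array alone and could only be lower, and 6 of the other 8 were lower. Between the controls 2 of the 10 were past 2-fold, both higher in the second. The list median was -1.83, against -0.01 between the controls. The signal of COMP was 1979 on the prelamin A array and 84.4 on the ZMPSTE24 array, beside 83.0 and 41.0 on the controls, 686 with prelamin A + FTI, 579 with progerin and 599 with progerin + FTI. COMP, a matrix protein of cartilage and tendon, was 19.9-fold lower with ZMPSTE24, at a signal near that of the first control, and its controls differed by 0.80. For ACAN the controls gave 1642 and 1467, prelamin A 1800.5, prelamin A + ZMPSTE24 244, prelamin A + FTI 1436, progerin 721 and progerin + FTI 440.1 units. The ZMPSTE24 array was the lowest of the 7 for ACAN, the cartilage proteoglycan aggrecan, and its prelamin A value was only little above the controls. SOX9 went from 822 to 141 units between the prelamin A and ZMPSTE24 arrays (controls 70.7 and 236, prelamin A + FTI 303, progerin 185, progerin + FTI 149). SOX9, the transcription factor of chondrocytes, and RUNX2, that of osteoblasts (2059 against 699, -1.54, controls 1.04 apart), were both lower. The bone sialoprotein gene IBSP read 137 on the prelamin A array and under 100 units on the other 6. COL10A1, the collagen of hypertrophic cartilage, went from 135 to 18.8 units and SPP1, osteopontin, from 1601 to 655. The 1 higher member, short of the yardstick, was ALPL, alkaline phosphatase (1.62), which read under 100 units on both arrays (18.2 against 89.5).

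Of 27 homeobox and related patterning factors kept, 6 were past 2-fold lower (4.63% of all genes), 5 of them past the yardstick, and none was higher. The other 21 did not pass, and 9 of the 27 were above 0. Between the controls 2 of the 27 were past 2-fold. DLX2 read 60.8 and 51.2 on the controls, 963 with prelamin A, 82.9 with prelamin A + ZMPSTE24, 652 with prelamin A + FTI, 13.7 with progerin and 2.98 with progerin + FTI units. DLX2 was over 100 units only on the 2 prelamin A arrays that lacked ZMPSTE24, and its difference was -3.31. The others were PRRX2 (2848 against 505, log2 difference -2.46, controls 0.85 apart), DLX3 (184 against 33.2, log2 difference -2.02, controls 0.35 apart), TBX3 (2581 against 736, log2 difference -1.79, controls 0.18 apart), DLX1 (119 against 30.7, log2 difference -1.53, controls 0.54 apart) and MSX1 (2593 against 1225, log2 difference -1.07, controls 0.41 apart). DLX1 differed by 0.54 between the controls and was the one member of the 6 short of the yardstick.

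The matrix metalloproteinases (MMPs), secreted enzymes that degrade collagens, proteoglycans and elastin, included the lowest gene of the comparison. Several lie in 1 cluster on chromosome 11, and the AP-1 motif is known from their promoters. The 250 bases before the start of MMP10 and MMP7 are shown because both genes were lower and both stretches hold the letters TGANTCA of an AP-1 site, in capitals here (RefSeq, GRCh38.p14, MMP10 at chr11:102780629-102780878, minus strand, MMP7 at chr11:102530748-102530997, minus strand).
MMP10: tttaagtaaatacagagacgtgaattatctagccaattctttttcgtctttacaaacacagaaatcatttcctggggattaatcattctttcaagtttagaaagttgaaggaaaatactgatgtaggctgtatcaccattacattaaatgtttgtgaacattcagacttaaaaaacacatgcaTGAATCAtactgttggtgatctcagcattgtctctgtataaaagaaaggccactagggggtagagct
MMP7: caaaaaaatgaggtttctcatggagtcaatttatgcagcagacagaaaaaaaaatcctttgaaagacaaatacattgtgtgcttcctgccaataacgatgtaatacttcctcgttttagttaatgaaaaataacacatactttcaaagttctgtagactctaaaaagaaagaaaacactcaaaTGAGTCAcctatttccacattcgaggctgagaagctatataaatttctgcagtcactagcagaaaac
In each, 60 bases lay between the match and the start. TGANTCA, read on both strands, was found in 2 of the 6 members of the MMP and TIMP list with a promoter (the 2 shown, of which MMP7 was kept through the prelamin A array alone), in 4.02% of the 10352 promoters of kept genes and in 6.60% of all 27305. A match is a description of the letters in this window and no evidence of a bound factor.

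The signal of MMP10 was 3024 on the prelamin A array and 1.94 on the ZMPSTE24 array, beside 74.8 and 249 on the controls, 33.8 with prelamin A + FTI, 29.7 with progerin and 39.2 with progerin + FTI. The ZMPSTE24 value was the lowest of the 7 and far under the 100 units at which a probe set was kept, so 169-fold lower (log2 difference -7.41) describes a gene measured on the prelamin A array and near zero on the other. MMP3 read 179 and 2773 on the controls, 23076 with prelamin A, 1166 with prelamin A + ZMPSTE24, 2381 with prelamin A + FTI, 776 with progerin and 692 with progerin + FTI units. MMP3 was bright, 19.5-fold lower with ZMPSTE24 (-4.29), and its controls differed by 3.84, with the ZMPSTE24 array between them. For MMP12 the controls gave 15.0 and 94.1, prelamin A 3291, prelamin A + ZMPSTE24 159, prelamin A + FTI 341, progerin 66.7 and progerin + FTI 45.1 units. MMP12, macrophage elastase, thus stood above 1000 units on the prelamin A array only, and its difference was -4.24. The stromal MMP11 (465 against 125) and MMP7 (187 against 44.4) were at -1.77 and -1.75. MMP11 lies on chromosome 22, outside the chromosome 11 cluster. Within that cluster, the interstitial collagenase MMP1 was among the brightest genes and read 33449 and 30039 (-0.16), and MMP27 read 232 and 376 (0.66). Of 15 kept MMPs and their inhibitors the TIMPs, 7 were past 2-fold lower and none higher (4.63% and 3.84% of all genes), with a median of -0.95. MMP7 was kept through the prelamin A array alone and could only be lower, and without it 6 were lower. Between the controls 4 of the 15 were past 2-fold, all higher in the second, with a median of -0.41. The 2 lower members short of the yardstick were MMP14 (-1.37) and MMP17 (-1.24).

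Other matrix genes past 2-fold were mostly lower, and most members did not pass. ELN read 215 and 534 on the controls, 843 with prelamin A, 32.8 with prelamin A + ZMPSTE24, 322 with prelamin A + FTI, 377 with progerin and 302 with progerin + FTI units. ELN, the gene of tropoelastin, was 17.6-fold lower (-4.14) and the ZMPSTE24 array was the lowest of all, under 100 units, while the controls differed by 1.25. Of 38 kept proteoglycans and glycoproteins, 8 were past 2-fold lower and 2 higher (4.63% and 3.84% of all genes). Above 0 were 14 of the 38, with a median of -0.14. After COMP and ELN came SPON1 (912 against 138, log2 difference -2.60, controls 0.36 apart), POSTN (4599.9 against 917, log2 difference -2.31, controls 1.23 apart), BGN (1739 against 502, log2 difference -1.76, controls 1.44 apart) and ASPN (714 against 248, log2 difference -1.47, controls 0.08 apart). POSTN encodes periostin, BGN and ASPN encode small leucine-rich proteoglycans. Higher were HAS2, which makes hyaluronan (4233 against 13028, 1.62), and LOXL1, a crosslinking enzyme of elastin (1.18). Of 24 kept collagens 4 were lower, none was higher and the median was -0.34: beside COL10A1 they were COL4A2 (-1.63) and COL4A1 (-1.17), the chains of basement membranes, and COL16A1 (-1.05). The fibrillar COL1A1 and COL1A2 were at -0.14 and -0.19.

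**Figure D3:**
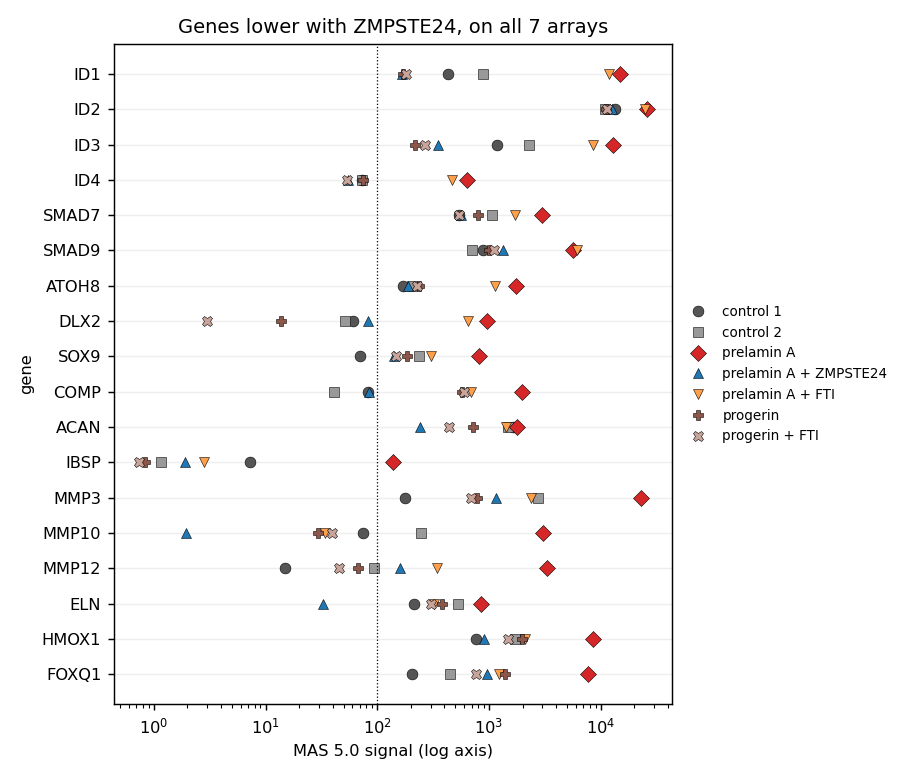
MAS 5.0 signal (horizontal log axis) of 18 genes that were lower with ZMPSTE24, 1 point for each of the 7 arrays, with the dotted line at the minimum of 100 units. Red diamonds (prelamin A) lie right of blue triangles (prelamin A + ZMPSTE24) in every row, and the orange triangles (prelamin A + FTI) lie near the red ones for ID1, ID2, ID3 and SMAD9 and near the blue ones for MMP3, HMOX1 and FOXQ1.

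FOXQ1, a forkhead transcription factor on chromosome 6, 1312098 to 1314758, (GRCh38.p14), had its highest signal with prelamin A. The signal of FOXQ1 was 7676 on the prelamin A array and 969 on the ZMPSTE24 array, beside 205 and 449 on the controls, 1225 with prelamin A + FTI, 1401 with progerin and 773 with progerin + FTI. The signal was 7.81-fold lower with ZMPSTE24 (-2.97), and the ZMPSTE24 array remained above both controls, which differed by 1.07. Of 17 kept forkhead genes 2 were past 2-fold lower, FOXQ1 and FOXF2 (-1.15), and 2 were higher, FOXE1 (2.11) and FOXP2 (1.23). Of all genes, 4.63% were lower and 3.84% higher. Other FOXP2 probe sets were at -0.08 and 0.67. FOXE1 read under 100 units on both arrays (9.57 and 94.6), and its controls differed by 3.17, more than the ZMPSTE24 pair. Between the controls 3 of the 17 were past 2-fold, 1 higher in the first and 2 in the second. HMOX1, heme oxygenase and a gene of the oxidative stress defence, was the 1 gene of 28 kept in that list past 2-fold. HMOX1 read 773 and 1715 on the controls, 8502 with prelamin A, 895 with prelamin A + ZMPSTE24, 2089 with prelamin A + FTI, 1996 with progerin and 1494 with progerin + FTI units. Its difference was -3.22 against 1.13 between the controls, and the ZMPSTE24 array lay between them.

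The remaining genes with the widest lower differences had varied roles. For SLC7A8 the controls gave 184 and 234, prelamin A 4158, prelamin A + ZMPSTE24 199, prelamin A + FTI 1025, progerin 209.5 and progerin + FTI 168 units. SLC7A8, an amino acid transporter, was 19.4-fold lower (-4.28). The signal of CD24 was 1406 on the prelamin A array and 92.0 on the ZMPSTE24 array, beside 82.0 and 20.2 on the controls, 1880.1 with prelamin A + FTI, 125 with progerin and 183 with progerin + FTI. CD24, a surface glycoprotein, was at -3.72 and its other 5 probe sets were lower too, although several are of a kind that can bind related transcripts. SCG5, a neuroendocrine chaperone, was at -3.35 and the neuropeptide galanin gene GAL at -3.32. GAL (252 against 10.8) was kept through the prelamin A array alone and could only be lower. SORBS2, an adaptor of the cytoskeleton, was at -3.25, DEPP1 at -3.25 and SOCS2-AS1 at -4.68. Other SORBS2 probe sets were at -0.60 and -0.46, short of 2-fold. SOCS2, a suppressor of cytokine signalling that neighbours SOCS2-AS1, read 8970.1 and 1255 (-2.82). Among genes of at least 1000 units on both arrays, the lowest after MMP3 and SOCS2 were ACTC1 (11224 against 1661, log2 difference -2.74, controls 0.67 apart), SOX4 (11012 against 1810.4, log2 difference -2.59, controls 0.24 apart), PRPS1 (10879 against 2167, log2 difference -2.32, controls 0.15 apart), WLS (4829.9 against 1015, log2 difference -2.23, controls 0.22 apart), GPRC5B (4508 against 1106, log2 difference -2.01, controls 0.51 apart), PENK (16682 against 4308, log2 difference -1.95, controls 2.41 apart) and SFRP2 (9652 against 2547, log2 difference -1.92, controls 0.13 apart) and SMAD9. PENK differed more between the controls (502 and 2738) than between the compared arrays. ACTC1, the cardiac actin, was also high with prelamin A + FTI at 17384 units, while the other 5 arrays lay between 1027 and 1661.

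Interferon response genes were the main group on the higher side. Interferons act through the STAT factors on a promoter element with repeated GAAA letters, and their targets encode antiviral proteins. Of 41 kept, 20 were past 2-fold higher and none lower (3.84% and 4.63% of all genes). Past the yardstick were 13 of the 20, and the median was 0.95. The controls differed in the same genes by as much: 20 of the 41 were past 2-fold, all higher in the first control, with a median of 0.94. With 1 array, a difference that goes with ZMPSTE24 and one between cultures cannot be told apart. The medians against the mean of the controls were -0.93 for prelamin A and 0.09 for prelamin A + ZMPSTE24.

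The 250 bases before a transcript start of IFI27, IFIT1 and IFIT3, the first start listed for each gene, are shown because these genes were among the highest members and each stretch holds, in capitals, the letters GAAA, any 2 letters and GAAA again on 1 of its strands (RefSeq, GRCh38.p14, IFI27 at chr14:94110486-94110735, plus strand, IFIT1 at chr10:89392373-89392622, plus strand, IFIT3 at chr10:89327747-89327996, plus strand). The stretch of IFI27 lies within the annotated span of the gene (94105894 to 94116690), before an internal start.
IFI27: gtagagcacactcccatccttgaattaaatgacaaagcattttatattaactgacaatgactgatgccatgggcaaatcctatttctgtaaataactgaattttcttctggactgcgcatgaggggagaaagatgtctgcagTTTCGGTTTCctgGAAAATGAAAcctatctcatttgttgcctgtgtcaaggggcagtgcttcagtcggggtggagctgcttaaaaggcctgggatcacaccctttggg
IFIT1: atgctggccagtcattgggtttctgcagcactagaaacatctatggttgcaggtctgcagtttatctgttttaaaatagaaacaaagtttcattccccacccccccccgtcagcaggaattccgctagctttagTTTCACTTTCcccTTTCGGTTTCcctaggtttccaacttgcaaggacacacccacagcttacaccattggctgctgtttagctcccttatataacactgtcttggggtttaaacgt
IFIT3: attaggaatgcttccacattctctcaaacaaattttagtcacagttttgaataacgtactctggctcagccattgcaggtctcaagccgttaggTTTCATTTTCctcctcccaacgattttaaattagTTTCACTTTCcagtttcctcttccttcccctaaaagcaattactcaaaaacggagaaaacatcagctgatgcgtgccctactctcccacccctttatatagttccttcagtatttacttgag
Read on both strands, the same motif was found in 18 of the 32 members with a promoter, in 2.42% of the 10352 promoters of kept genes and in 3.07% of all 27305. Members without a match, such as RSAD2 and MX1, were higher as well.

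IFI27 read 179.7 and 59.3 on the controls, 9.36 with prelamin A, 544 with prelamin A + ZMPSTE24, 67.2 with prelamin A + FTI, 124 with progerin and 167 with progerin + FTI units. IFI27 was lowest with prelamin A and highest with prelamin A + ZMPSTE24, a difference of 4.46 against 1.38 between the controls. The signal of IFIT2 was 162 on the prelamin A array and 1275 on the ZMPSTE24 array, beside 679 and 297 on the controls, 369.6 with prelamin A + FTI, 362 with progerin and 497 with progerin + FTI. The ZMPSTE24 array was again the highest, and the difference was 2.86. For IFIT1 the controls gave 3798 and 1072, prelamin A 791, prelamin A + ZMPSTE24 3129.6, prelamin A + FTI 1388, progerin 1447 and progerin + FTI 1340.4 units. IFIT1 and IFIT3 (1428 against 4499.8, 1.65), which like IFIT2 encode proteins that bind viral RNA, had a first control near the ZMPSTE24 array and a second near the prelamin A array. RSAD2 read 103 and 14.2 on the controls, 22.3 with prelamin A, 273 with prelamin A + ZMPSTE24, 38.9 with prelamin A + FTI, 21.6 with progerin and 17.8 with progerin + FTI units. RSAD2, viperin, exceeded 200 units on the ZMPSTE24 array only (2.92). The RNA sensor IFIH1 (1.83), IFITM1 (1.35), IFI44 (1.24), HERC6 (1.22), GBP1 (1.13), PSMB9 (1.12), SAMD9 (1.08) and PARP9 (1.02) completed the 13 past the yardstick. MX1 went from 386 to 1298 units (1.71), under its control difference of 2.52.

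The 2 highest genes outside that group were LEP and VEPH1. For LEP the controls gave 1099 and 85.0, prelamin A 202, prelamin A + ZMPSTE24 5266, prelamin A + FTI 582, progerin 1497 and progerin + FTI 1572 units. LEP, the hormone leptin, was 24.2-fold higher with ZMPSTE24 (4.60), and its controls differed by 3.46. The signal of VEPH1 was 176 on the prelamin A array and 2746 on the ZMPSTE24 array, beside 437 and 229 on the controls, 337 with prelamin A + FTI, 733 with progerin and 977 with progerin + FTI. VEPH1 differed by 3.85 against 0.89 between the controls, and the ZMPSTE24 array was the highest of the 7. ADH1B read 213 and 122 on the controls, 276 with prelamin A, 3776 with prelamin A + ZMPSTE24, 244 with prelamin A + FTI, 2857 with progerin and 1613 with progerin + FTI units. The 3 arrays with progerin or with ZMPSTE24 stood above the 4 others for ADH1B, an alcohol dehydrogenase (3.70), and its other 2 probe sets were higher by 3.66 and 3.34. Its near-identical paralogs ADH1A and ADH1C may share some of these probes. For PPL the controls gave 438 and 302, prelamin A 131, prelamin A + ZMPSTE24 1276, prelamin A + FTI 132, progerin 1548 and progerin + FTI 844 units. PPL, the cytoskeletal linker periplakin (3.14), was highest on the same 3 arrays, and its prelamin A and prelamin A + FTI values were below both controls. Also of this rank were GPRC5A (23.3 against 504, log2 difference 3.73, controls 1.04 apart) and GUCY1A2 (59.9 against 858, log2 difference 3.53, controls 1.08 apart). GPRC5A encodes an orphan receptor and GUCY1A2 a subunit of soluble guanylate cyclase. RHOJ (133.01 against 1260.0, log2 difference 3.10, controls 0.53 apart) encodes a small GTPase. RXFP1 (266 against 1932, log2 difference 2.79, controls 1.35 apart) encodes the relaxin receptor. The remaining genes of this rank were RPTN (15.8 against 223, log2 difference 2.91) and DIRC3 (7.47 against 149, log2 difference 2.81). RPTN and DIRC3 were kept through the ZMPSTE24 array alone and could only be higher.

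Guidance factors, secreted proteins that steer axons and vessels, and their receptors differed in a number of genes close to that between the controls. Of 30 kept, 5 were past 2-fold higher and 1 lower (3.84% and 4.63% of all genes), with a median of 0.13. Between the controls 4 were higher in the first and 2 in the second, with a median of 0.22. NTN4 went from 376 to 3209.7 units between the prelamin A and ZMPSTE24 arrays (controls 3747 and 893, prelamin A + FTI 1819, progerin 2761, progerin + FTI 3019). NTN4, a netrin, was lowest with prelamin A, and its difference of 3.04 exceeded the 2.05 of the controls. The signal of SEMA3A was 431 on the prelamin A array and 3099 on the ZMPSTE24 array, beside 1355 and 375 on the controls, 1079.9 with prelamin A + FTI, 2390.2 with progerin and 2686 with progerin + FTI. SEMA3A and SEMA3C (2130.0 against 6349, 1.57), class 3 semaphorins, and SLIT2 (2930.0 against 8789, 1.58) were higher, and ROBO2, a SLIT receptor, was at 1.06, short of the yardstick. NRP2, a receptor of class 3 semaphorins, was the lower member (-1.57).

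Among bright genes, those of at least 1000 units on both arrays, IGFBP5 was the highest. IGFBP5 read 1367 and 161 on the controls, 3441 with prelamin A, 15943 with prelamin A + ZMPSTE24, 3399.7 with prelamin A + FTI, 8320.2 with progerin and 7243 with progerin + FTI units. It binds insulin-like growth factors, and its difference of 2.21 was under the 2.96 between the controls. The next were TGFBR3 (2701 against 11816, log2 difference 2.12, controls 1.35 apart), PTX3 (6251 against 24176, log2 difference 1.95, controls 0.41 apart), CLGN (1084 against 3965, log2 difference 1.86, controls 0.47 apart), KLF4 (2156 against 7449, log2 difference 1.78, controls 0.27 apart), GABBR2 (1342 against 4592, log2 difference 1.76, controls 1.18 apart) and TMEM158 (2515 against 8138, log2 difference 1.69, controls 1.14 apart), followed by IFIT3, RPL22L1 (1.64) and HAS2. TGFBR3 is the coreceptor betaglycan, PTX3 a pentraxin of innate immunity and KLF4 a transcription factor of growth arrest. Of the 4654 genes this bright, 66 were higher and 65 lower past 2-fold, and of 4636 in the control pair 64 and 70.

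**Figure D4:**
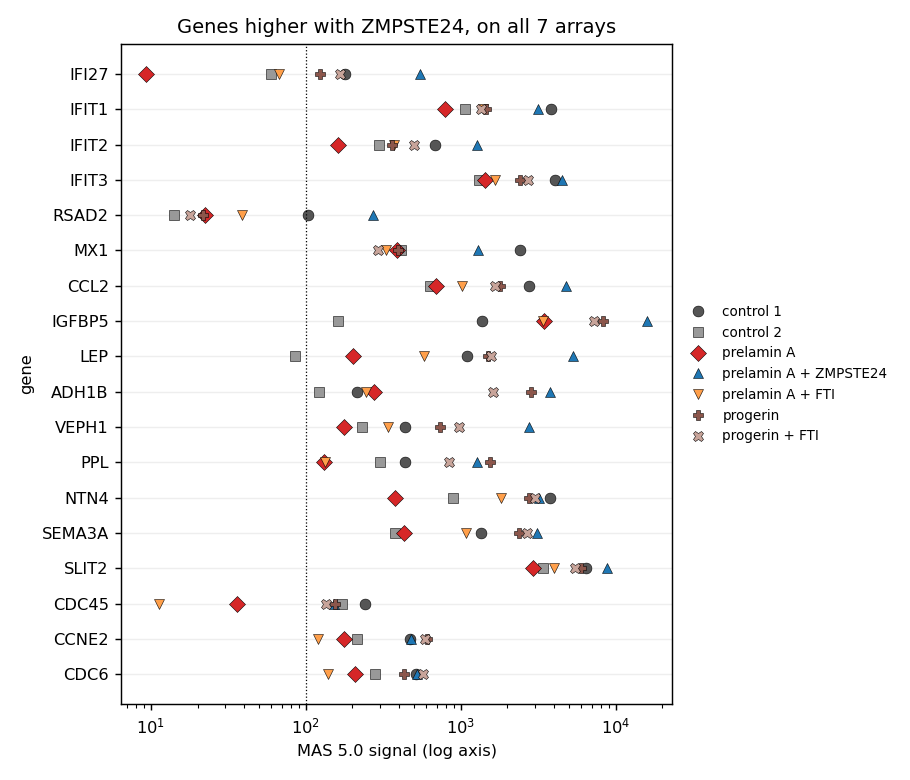
MAS 5.0 signal (horizontal log axis) of 18 genes that were higher with ZMPSTE24, 1 point for each of the 7 arrays, with the dotted line at the minimum of 100 units. Blue triangles (prelamin A + ZMPSTE24) lie right of red diamonds (prelamin A) in every row. The 2 controls (dark circle and grey square) lie apart by more than 2-fold for IFI27, IFIT1, IFIT2, IFIT3, RSAD2, MX1, CCL2, IGFBP5, LEP, NTN4, SEMA3A and CCNE2.

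Secreted factors of senescent cells ran both ways. Of 28 kept, 6 were past 2-fold higher and 7 lower (3.84% and 4.63% of all genes). Between the controls 2 of the 28 were past 2-fold higher in the first and 8 in the second, with a median of -0.46. CCL2 went from 692 to 4742 units between the prelamin A and ZMPSTE24 arrays (controls 2742 and 631, prelamin A + FTI 1012, progerin 1800.2, progerin + FTI 1659). CCL2, the monocyte chemokine, had the widest higher difference (2.75) and controls 2.09 apart. PLAU (1.37), TNFRSF11B (1.23) and VEGFA (1.08) were higher past the yardstick. The chemokines CXCL5 (-2.16) and CXCL12 (-1.33) and the growth factor FGF7 (-1.21) were lower past it, and CXCL8 (-1.15) and IL11 (-1.99) were lower within it. CXCL5 (157 against 22.5) was kept through the prelamin A array alone and could only be lower, and without it 6 were lower.

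Genes of the cell cycle differed little, beside 3.84% higher and 4.63% lower past 2-fold of all genes. Of 41 replication genes 3 were past 2-fold higher and none lower, with a median of 0.44 against 0.38 between the controls. They were the origin-licensing factor CDC6 (207 against 525), cyclin E2, CCNE2 (177 against 480.1), and the helicase cofactor CDC45 (36.0 against 152), and in all 3 the prelamin A + FTI array was the lowest. CDC45 was short of the yardstick, and between the controls 5 of the 41 were past 2-fold. None of the 42 genes of mitosis was past 2-fold, with a median of 0.18, and CCNA2, cyclin A2, was at -0.74. The median of the same 42 genes was 0.64 between the controls. Of the 11 kept inhibitors of cyclin-dependent kinases and senescence genes 1 was past 2-fold, CDKN1C (857 against 377, -1.15). Of 27 targets of p53, PMAIP1 was higher (1.68) and TP53I3 (-1.37) and GDF15 (-1.06) were lower. The GDF15 controls differed by 2.01, more than the ZMPSTE24 pair, and 3 of the 27 were past 2-fold between the controls, 1 higher in the first and 2 in the second. None of the 26 cytosolic ribosomal proteins or of the 38 genes of oxidative phosphorylation was past 2-fold, with medians of 0.12 and 0.02.

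**Figure D5:**
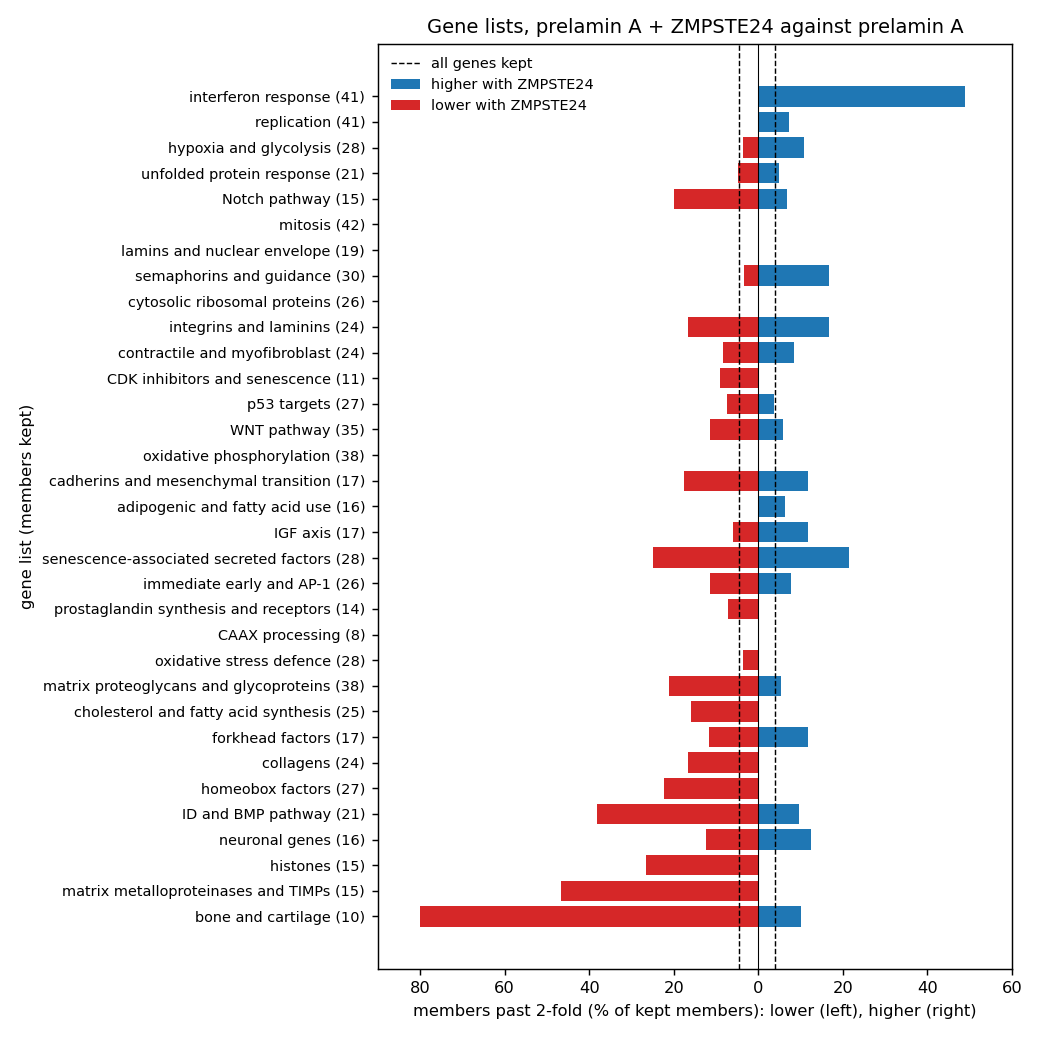
For each gene list, with its number of kept genes in brackets, the bars give the percent of members past 2-fold lower (red, to the left) and higher (blue, to the right) with ZMPSTE24, and the dashed lines give the 4.63% and 3.84% of all genes. The longest lower bar is that of bone and cartilage (8 of 10) and the longest higher bar that of the interferon response (20 of 41), a list that also differed between the controls in 20 genes.

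The next comparison asked where the ZMPSTE24 array stood against the controls. It shares the prelamin A array with the comparison above, so a gene that happened to read high there counts in both, and the counts are descriptions. The 190 genes kept through the prelamin A array alone read above both controls there by construction and could only be called lower. Of these, 89 were past 2-fold lower and 25 past the yardstick, and they were not taken out of the counts below. Of the 296 genes lower past the yardstick, 253 read above both controls on the prelamin A array, and of these 253 the ZMPSTE24 array was within the control range for 64, still above it for 84 and below it for 105. Of the 251 higher genes, 161 read below both controls with prelamin A, and with ZMPSTE24 85 of the 161 were above both, 45 within the range and 31 below. Seen from the prelamin A array, 676 genes read more than 2-fold above both controls. Of these, 219 (32.4%) were past 2-fold lower with ZMPSTE24, 12 were past 2-fold higher, and 307 (45.4%) were still more than 2-fold above both controls. Of 402 genes that read more than 2-fold below both controls, 139 (34.6%) were past 2-fold higher with ZMPSTE24 and 130 (32.3%) were still more than 2-fold below. These shares stand against 4.63% lower and 3.84% higher of all genes, and a high or low reading on the shared array counts towards them. With the second control alone as the reference, without the first, the shares past 2-fold towards the control were 21.9% and 18.1%.

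Of the 1078 genes off both controls in either direction, 363 differed by less than 0.5 on the log2 scale when ZMPSTE24 was added. For SFRP1 the controls gave 386 and 410.3, prelamin A 11954, prelamin A + ZMPSTE24 13372, prelamin A + FTI 13552, progerin 6285 and progerin + FTI 5038 units. SFRP1, a secreted WNT inhibitor, thus read far above the controls on all 3 prelamin A arrays, and the ZMPSTE24 difference was 0.16. SELENOP read 201 and 10.0 on the controls, 5056 with prelamin A, 3683 with prelamin A + ZMPSTE24, 4345 with prelamin A + FTI, 2265 with progerin and 2418 with progerin + FTI units. SELENOP, a selenium carrier, and DCLK1, a kinase of microtubules (1779 against 1262, controls 32.7 and 13.2), were also high in both. The decoy receptor IL13RA2 (7393 against 6142, controls 97.1 and 316), the WNT enhancer RSPO3 (2214 against 2951, controls 105 and 69.8) and the monoamine oxidase MAOA (621 against 765, controls 18.1 and 18.4) showed the same. SCRG1 was low in both (121 against 116, controls 1432 and 2989). These genes were chosen after their values were seen, as those farthest from the controls.

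Progerin, which ZMPSTE24 cannot cut, gives a comparison that shares no array with the ZMPSTE24 pair. Of 385 genes more than 2-fold above both controls on the progerin array, 41 (10.6%) were past 2-fold lower with ZMPSTE24 than with prelamin A alone and 73 (19.0%) were past 2-fold higher. Of 187 genes more than 2-fold below, 14 (7.49%) were past 2-fold higher and 40 (21.4%) lower. Of the 251 genes higher with ZMPSTE24 past the yardstick, 183 (72.9%) read higher with progerin than the mean control, against 50.7% of all genes, and of the 296 lower genes 141 (47.6%). Over all 12726 genes the Pearson correlation of the ZMPSTE24 difference was 0.126 with progerin minus control and 0.0139 with progerin + FTI minus progerin. These are correlations across genes, which are not independent replicates. LEP, ADH1B, PPL, VEPH1 and SEMA3A, which read higher with ZMPSTE24, also read above both controls on the progerin array.

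The FTI, which blocks the farnesylation that precedes the ZMPSTE24 cut, was the other treatment of prelamin A cells. Both differences use the same prelamin A array, so they are set side by side only. FTI minus prelamin A was past 2-fold in 292 genes higher (2.29%) and 373 lower (2.93%). Of the 296 genes lower with ZMPSTE24, 94 (31.8%) were also past 2-fold lower with FTI, 172 were lower by less and 30 were not lower, with medians of -1.63 for ZMPSTE24 and -0.69 for FTI. Of the 251 higher genes 73 (29.1%) were past 2-fold higher with FTI and 36 were not higher, with medians of 1.56 and 0.63. MMP10 (log2 FTI difference -5.93), MMP3 (-3.27), MMP12 (-3.21), FOXQ1 (-2.63), HMOX1 (-2.02) and SPON1 (-2.69) were lower in both. ID1 (-0.32), ID2 (-0.04), ID3 (-0.57), SMAD9 (0.10), NOG (0.59), ACTC1 (0.63), CD24 (0.42) and PRRX2 (0.21) differed from prelamin A by less than 1 with FTI and were past 2-fold lower with ZMPSTE24. Between the ZMPSTE24 and FTI arrays themselves, 409 genes (3.21%) were past 2-fold higher with ZMPSTE24 and 435 (3.42%) lower.

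Genes measured by further probe sets mostly showed the same sign, while fewer of those probe sets were past 2-fold. Further probe sets were kept for 137 of the 251 higher and 141 of the 296 lower genes. Of the other probe sets of the 251 higher genes 234 of 247 (94.7%) were above 0, and of the lower genes 257 of 265 (97.0%) were below it. Past 2-fold were 136 of the 247 (55.1%) and 180 of the 265 (67.9%). Probe sets of 1 gene share the arrays, so this is a check of the measurement and not of the cultures.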

How the data were processed

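The authors deposited 1 table of linear intensity values, the MAS 5.0 signal of each probe set on 7 Affymetrix human arrays. It is already background-corrected, summarised and scaled (each array's mean after trimming 2% at each end was 500.1, whereas the target in the methods is another), and such scaling hides a shift common to all genes. Without probe-level values the study's S-score test was not run, and precision is limited by how few arrays there are.

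Of 54675 probe sets, 62 array controls, 1801 with several genes and 11721 with none were left out. Of 41091 with 1 gene in the platform annotation, 41037 matched the RefSeq table of GRCh38.p14 by gene ID. A probe set had to reach 100 units on 1 array or more, and the brightest stood for its gene (12726 genes). Differences were taken as log2(signal + 16) in Python 3.11.15 with pandas 2.3.3. The like-signal percentile was taken in 20 bins of the pair's mean. limma 3.58.1 in R 4.3.3 fitted the 6 conditions with 1 residual degree of freedom, after a test on simulated data, and its p-values measure only the spread of the 2 controls. 

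The genes named were ZMPSTE24, LMNA and FOXQ1, the 15 widest differences each way past the yardstick, the 10 widest each way among genes of at least 1000 units on both arrays and the 4 widest members of each list described. Others past 2-fold in a list were named to complete its count, after their values were seen. The members and lists were chosen with earlier results of these data known. Genes of the Y chromosome were left out of the names. Alternatives were the pseudocount, scaling, filter, fold, yardstick, probe sets for each gene, limma and leaving out each control.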

Additional observations from a re-analysis of the deposited data

How the results depend on the processing

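With 1 array on each side no result had a replicate check, and dim genes carried the widest error. None of the 123 named genes past 2-fold reversed, and 110 stayed past 2-fold in every setting tried. These genes were named largely for wide differences, so the count does not describe all genes. The exceptions were GDF15, DLL1, HEY1, HES1, SREBF1, MYOCD, CNN1, MAP2, NEFM, SNAP25, H2AC8, IGFBP2 and CD163. A count was taken as the same within 1.5 times the value given above. A share was taken as the same within its binomial interval over genes, which are not independent replicates. Of the counts and shares, 54 values were the same so defined and 37 were not. The cause was not tested beyond what each setting does by construction.

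In the order higher, lower and between the controls, the genes past 2-fold were 312, 354 and 634 with a pseudocount of 64, 1123, 1449 and 2599 with no filter, 934, 1156 and 2556 over every probe set, 1173, 1503 and 3157 at 1.5-fold and 80, 111 and 171 at 4-fold. Where the mean signal had to reach 100, 354 were lower and 775 differed between the controls. limma with an unadjusted p under 0.05 gave 278 and 363, and 244 and 277 with an intensity trend. Past the yardstick, higher and lower, there were 420 and 507 over every probe set, 64 and 96 at 4-fold, 412 and 523 with the gene's own control difference alone and 85 and 102 at the 99th percentile, and 480 lower with no filter. Higher genes were 45.4% of the calls, 49.9% after quantile normalization and 47.6% after centring.

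The share of genes above both controls with prelamin A that were past 2-fold lower with ZMPSTE24 was 38.5% with no filter and 28.4% where the mean signal had to reach 100, and 21.9% to 31.8% without 1 of the controls. For genes below both controls the share past 2-fold higher was 39.7% with a pseudocount of 1 and 26.2% with 64, and 18.1% to 33.9% without 1 of the controls. Of genes above both controls with progerin, 5.34% were past 2-fold lower with a pseudocount of 64. The yardstick could not be computed without either control. No paired analysis was possible because the groups compared share fewer than 2 replicate numbers.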

Other observations

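Smaller groups held single genes of note, and their counts stand beside 3.84% higher and 4.63% lower past 2-fold of all genes. In the cholesterol and fatty acid list 4 of 25 were past 2-fold lower and none higher: MVD (103 against 8.60, log2 difference -2.27, controls 1.53 apart), HMGCS1 (927 against 315, log2 difference -1.51, controls 0.49 apart), INSIG1 (5487 against 2292, log2 difference -1.25, controls 0.74 apart) and SREBF1 (304 against 139.6, log2 difference -1.04, controls 0.23 apart), of which HMGCS1 and INSIG1 were past the control yardstick. HMGCS1 and MVD are enzymes of the mevalonate pathway, which makes the farnesyl group of prelamin A. Their signals on the prelamin A + FTI array were 524 and 101. Of 28 genes of hypoxia and glycolysis, VEGFA (1.08), PDK1 (1.13) and ENO2 (1.13) were higher and PFKFB3 (-1.22) lower. Among 26 immediate early genes, NR4A2 (-2.00) and EGR3 (-1.92) were lower past the yardstick and ATF3 (1.37) and KLF4 higher, with a second ATF3 probe set at 0.04, and the first control was past 2-fold above the second in 6 of the 26.

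In the WNT list of 35, NKD2 (-2.08), SFRP2 (-1.92) and SFRP4 (-1.32) were lower past the yardstick and DKK2 (1.65) and WNT16 (1.51) higher, while SFRP1 was at 0.16. Between the controls, 4 of the 35 were past 2-fold higher in the first and 3 in the second. The integrins and laminins ran both ways, with ITGA8 (-1.97), LAMB1 (-1.33) and ITGA11 (-1.09) lower and ITGA7 (2.15), ITGB8 (1.83) and LAMA4 (1.01) higher. Of 15 histone genes 4 were past 2-fold lower and the list median was -0.50, but between the controls 8 of the 15 were past 2-fold and the median was 1.13. In the Notch list of 15, JAG1 was higher past the yardstick (1.05), while DLL1 (-1.23), HEY1 (-1.15) and HES1 (-1.08) were lower within it, and 4 of the 15 were past 2-fold between the controls.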
